A study of Drosophila melanogaster with 10 samples.

Results

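Both-strand positions are the nucleotides of transposon consensus sequences that carried piRNA-sized reads on the sense and on the antisense strand of control cells. They were chosen by their coverage in siLuc: the mean of the 3 siLuc libraries had to be at least 50 on each strand, per 1000000 miRNA reads. The rule found 19256 of 610009 positions, or 3.16%, in 30 of 122 elements. A further 191007 positions reached the limit on the antisense strand alone, 40537 on the sense strand alone and 359209 on neither.

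All 10 libraries hold Argonaute-bound small RNAs of OSCs, cultured somatic cells derived from the ovary of Drosophila melanogaster. For 2x_Panx-IDR, cells of a clonal line with 14 UAS sites in front of the flamenco promoter received Gal4 fused to the silencing domain of Panoramix, again after 48 h, and were harvested on day 6 (replicate 1) or day 7 (replicate 2). For Gal4 (2 libraries) the same line received Gal4 alone, and the sample titles give no harvest day. The 2 days of 2x_Panx-IDR were treated as replicates, so their spread includes any difference between days. The 2x_Panx-IDR cells were sorted for reduced GFP, and the labels state in one field that the Gal4 cells were not sorted and in another that they were, so sorting and silencing cannot be told apart. For siArmi (3 libraries) OSCs without the UAS sites received an siRNA against armitage, and for siLuc (3 libraries) an siRNA against luciferase, at 0 and 48 h, with harvest at 96 h. The line with UAS sites is a single clone, and the 2 sets of libraries also differ in 3′ adaptor and depth, so that each contrast was kept within its own set. Nothing in the labels says that replicates of a group came from separate cultures, and the p-values measure the spread between these libraries.

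OSCs run only the somatic, nuclear branch of the piRNA pathway. Long precursor transcripts, above all from the flamenco locus, are cut into piRNAs that are loaded into Piwi, and most of them are antisense to transposons because insertions in flamenco lie mostly in the orientation opposite to its transcription. Armitage is an RNA helicase needed for this step. Sense piRNAs can be made from transposon transcripts themselves or from insertions in the other orientation inside a source locus. In germ cells, reads on both strands of a stretch can come from the ping-pong cycle, in which Argonaute proteins other than Piwi cut opposing transcripts. Coverage carries no 5′ ends, and the source of the reads was not tested here.

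The smallest step in each library's values put its depth at 117444 to 151205 miRNA reads in 2x_Panx-IDR, 87066 to 110492 in Gal4, 586560 to 875165 in siArmi and 1297626 to 1799370 in siLuc. A coverage of 50 stands for 64.9 to 90.0 reads in the siLuc libraries that chose the positions, but for only 4.35 to 7.56 reads in the tethering libraries. Replicates of every group differed by more than sampling noise, which does not show that they came from separate cultures. The summed transposon signal per miRNA read in 2x_Panx-IDR was 62.6% of that in Gal4, and 46.9% with roo left out. In siArmi it was 4.82% of that in siLuc.

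The both-strand positions were concentrated in few elements. LTR retrotransposons of the gypsy type, which move through an RNA copy, held 9799 positions (50.9%) in 16 of 50 elements. LINEs, retrotransposons without terminal repeats, held 5219 (27.1%) in 5 of 35 elements. The BEL/Pao type held 2513 (13.1%), of which roo accounted for 2509. DNA transposons and Helitron-type repeats held 1131 (5.87%) in 5 of 25 elements, and the copia type held 594 (3.08%) in 2 of 5. These shares also reflect the size of each class. Both-strand positions made up 2.97% of the nucleotides of the gypsy type, 3.35% of LINEs and 5.12% of the BEL/Pao type. They made up 2.13% of DNA transposons and Helitron-type repeats and 2.78% of the copia type, against 3.16% of all positions.

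Doc, a LINE, held the most, with 2667 both-strand positions or 56.4% of its consensus. It was followed by mdg3 with 2643 (47.9%), springer with 2566 (34.0%) and roo with 2509 (27.6%). These 4 elements together held 53.9% of all both-strand positions. F-element, a LINE related to Doc, held 1705, gypsy6_new 1226, a gypsy-type element of 7439 nt 1132, the LINE Juan 806, a DNA transposon of 3409 nt 747 and Quasimodo 428. The elements of 7439 nt and 3409 nt, and a gypsy-type element of 6995 nt, have bare numbers as names and are given by type and consensus length. With these, 10 elements held 85.3%, and 2827 positions lay outside them. The share of the consensus covered was also high in the short Helitron-type repeat Repbase_DNAREP1, at 54.2% (322 positions). Copia1 held 396 positions, gypsy 308, Stalker 301, the 6995-nt element 296, Stalker2 294, flea 291, copia 198 and Transpac 164. Next came rover with 50, and 10 elements held fewer than 50, with diver2 (4) and HMS-Beagle2 (10) at the low end. The remaining 92 elements held none.

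The positions formed 194 stretches when gaps of up to 25 nt were joined, with a median span of 38 nt. Only 51 stretches spanned at least 100 nt, but they held 79.6% of the positions. The 10 longest held 40.4%. The longest ran over 2006 nt at the start of Doc, from nt 29 to 2034 of its consensus. F-element had stretches of 1089 nt (nt 1511 to 2599) and 616 nt (nt 3685 to 4300). In mdg3 the longest reached over 1015 nt (nt 3435 to 4449), and in springer over 840 nt close to the end (nt 6450 to 7289). roo had stretches of 576 nt (nt 5 to 580) and 470 nt (nt 8603 to 9072) at its ends, Juan one of 519 nt (nt 1588 to 2106), the 7439-nt element one of 517 nt (nt 44 to 560) and gypsy6_new one of 466 nt (nt 5843 to 6308).

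Part of the pattern lay in long terminal repeats, the identical ends of LTR elements. Repeats were inferred from values that are identical at the start and the end of a consensus, since a read that maps to both ends counts 0.5 at each. In total 3582 both-strand positions (18.6%) lay in such repeats, and 3294 of them are members at both copies, so that they rest on the same reads counted at 2 places. All 308 both-strand positions of gypsy, all 296 of the 6995-nt element and all 50 of rover lay there, as did 927 of 1132 in the 7439-nt element and 393 of 396 in Copia1. In roo the number was 813 of 2509, in springer 358 of 2566 and in mdg3 258 of 2643. None of those of gypsy6_new, Stalker2, copia or Transpac lay in a repeat.

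Values of siLuc chose the positions and are given as a description. Antisense coverage was the higher at 12302 both-strand positions (63.9%) and sense coverage at 6954. The strands were within 2-fold of each other at 5425 positions (28.2%), antisense exceeded sense by over 10-fold at 2954, and sense exceeded antisense by over 10-fold at 1329. The mean sense coverage was 425 ± 67.7 and the mean antisense coverage 503 ± 90.5 (SD, n = 3). Both-strand positions held 23.6% of all sense signal and 2.59% of all antisense signal of the siLuc libraries. Close to the limit, 2026 positions had their weaker strand between 50 and 55, just inside, and 2478 between 45 and 50, just outside.

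Elements differed in which strand was the stronger. In siLuc, antisense coverage made up 97.3% ± 0.2 of the coverage at the both-strand positions of gypsy, 90.1% ± 0.6 in Quasimodo and 86.9% ± 0.4 in roo. It made up 63.4% ± 0.5 in mdg3 and 56.6% ± 1.5 in Doc. At the other end stood springer with 11.3% ± 0.5, Repbase_DNAREP1 with 7.84% ± 0.52 and the 3409-nt DNA transposon with 24.2% ± 1.1 (SD, n = 3 each). Along the whole consensus, sense and antisense coverage of siLuc were positively rank-correlated across positions in mdg3 (Spearman's rho 0.73) and the 3409-nt DNA transposon (0.72), and negatively in Doc (-0.62) and F-element (-0.36). Neighbouring positions share reads and are not independent, so these values are descriptions.

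The same limit was then applied to the libraries that had not chosen the positions. With the mean of 2x_Panx-IDR, 54874 positions reached 50 on both strands, which included 79.1% of the siLuc positions. With the mean of Gal4, 35176 positions did, which included 92.3% of the siLuc positions and in turn shared 50.5% of its own list with them. With the mean of siArmi, 44 positions did, in 2 elements. At the shallow depth of the tethering libraries the limit is reached by few reads, and the part of depth in the longer lists was not tested. Single siLuc libraries gave 21375, 21537 and 15580 positions.

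In siArmi, both-strand positions lost nearly all coverage on both strands. Mean sense coverage was 19.2, 20.1 and 21.0 in the siArmi libraries, against 475, 453 and 348 in the siLuc libraries. Mean antisense coverage was 21.9, 20.5 and 21.4 in siArmi, against 563, 547 and 399 in siLuc. Every siArmi library lay far below every siLuc library, and what was left was 4.72% ± 0.22 of the siLuc mean on the sense strand and 4.23% ± 0.14 on the antisense strand (SD over 3 siArmi libraries). No test was made because the siLuc libraries chose the positions. The antisense-only positions kept 4.88% ± 0.36 of their antisense coverage and 14.6% ± 1.3 of their sense coverage, which averaged only 5.90 in siLuc. All these percentages refer to miRNA reads. Scaled instead to the total transposon signal of each library, which itself fell to 4.82%, the siArmi level was 98.1% of siLuc on the sense strand and 87.9% on the antisense strand.

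What was left in siArmi differed between elements and strands. Over the 24 elements with at least 25 both-strand positions, it ranged from 2.25% (roo) to 12.9% (gypsy) of siLuc on the sense strand, with a median of 4.49%, and from 2.44% (Stalker2) to 7.36% (hopper) on the antisense strand, with a median of 3.50%. The sense share was above the antisense share in 15 elements and below it in 9. Sense coverage of gypsy was 10.0, 10.9 and 15.1 in the siArmi libraries, against 97.5, 98.3 and 83.1 in siLuc, while 5.25% ± 0.27 of its antisense coverage was left. In the 6995-nt element, 9.46% ± 1.03 of sense and 2.83% ± 0.40 of antisense coverage were left, in Quasimodo 7.52% ± 1.69 and 3.40% ± 0.38, and in Stalker2 7.10% ± 0.57 and 2.44% ± 0.18. All 4 are of the gypsy type, and antisense coverage made up 82.8% (Stalker2) to 97.3% (gypsy) of their siLuc coverage, but the 7439-nt element, with 85.2%, is also of this type and had the opposite order. At antisense-only positions, the sense share left was 108% in gypsy, 68.7% in the 6995-nt element, 24.1% in Stalker2 and 7.67% in Quasimodo. Mean sense coverage there was low in siLuc, at 5.98, 4.28, 6.29 and 20.9.

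A smaller share of sense than of antisense coverage was also left in roo and mdg3. In roo, 2.25% ± 0.10 of sense and 5.39% ± 0.25 of antisense coverage were left in siArmi. In mdg3 the values were 3.86% ± 0.19 and 5.73% ± 0.38, and in the 7439-nt element they were 2.83% ± 0.43 and 5.34% ± 0.63. For springer, in which sense piRNAs dominate, 5.57% ± 0.42 of sense and 3.17% ± 0.34 of antisense coverage were left (SD, n = 3 each). In Doc the strands kept like amounts, 3.67% ± 0.22 and 3.43% ± 0.08.

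**Figure D1:**
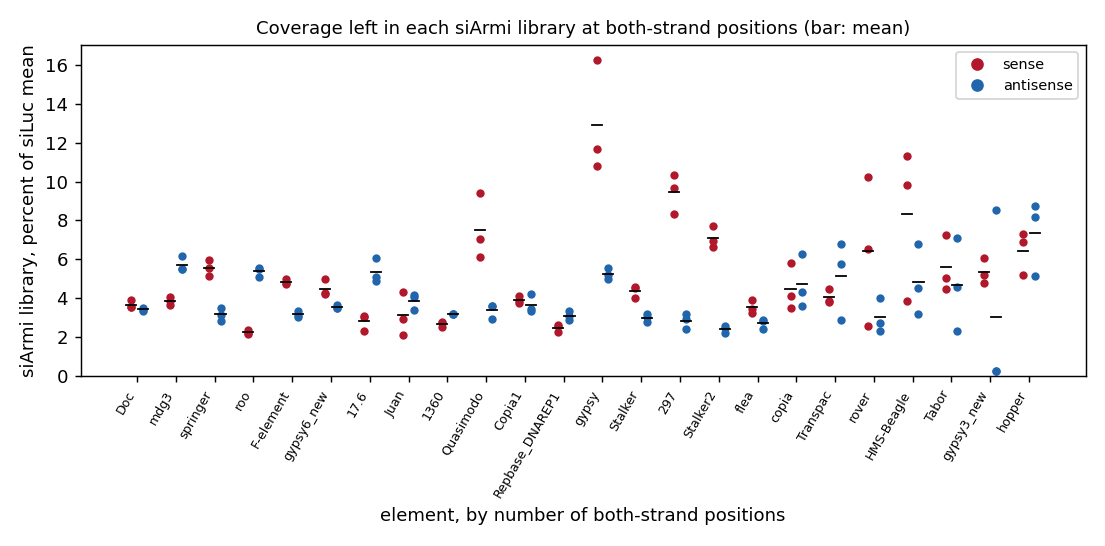
Coverage at both-strand positions in each of the 3 siArmi libraries, as a percent of the siLuc mean, for the 24 elements with at least 25 such positions (points: libraries, bars: means). Sense values of gypsy average 12.9%, above its antisense mean of 5.25%, whereas roo averages 2.25% on the sense strand and 5.39% on the antisense strand.

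The tethering contrast, 2x_Panx-IDR against Gal4, asks what happens at these positions when transcription of flamenco is silenced. Its libraries had no part in choosing the positions. For each element the mean coverage over its both-strand positions entered a limma fit on the log2(value + 1) scale, together with the antisense-only, sense-only and remaining parts of all elements. Calls were made at an adjusted p below 0.05, with Benjamini-Hochberg adjustment over all parts. Of the 30 elements, 24 had a both-strand part of at least 25 nt, and all 24 passed the filter of a mean of 10 over the 4 libraries. The 6 elements left out (BS, pogo, Cr1a, hobo, HMS-Beagle2 and diver2) hold 92 positions. An exact test of 2 libraries against 2 cannot give a p below 0.333.

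On the sense strand, coverage was lower in 2x_Panx-IDR in 13 of 24 both-strand parts (54.2%) and higher in 4 (16.7%), where of all 129 parts tested 31% were lower and 20.2% higher. On the antisense strand, 13 of 24 (54.2%) were lower and 1 (4.17%) higher, where of all 162 parts 42% were lower and 7.41% higher. The groups did not overlap in 20 of 24 both-strand parts on either strand (83.3%), against 79.8% of all parts on the sense strand and 78.4% on the antisense strand. The median log2 change of the both-strand parts was -0.65 on the sense strand and -0.64 on the antisense strand, against -0.18 and -0.39 over all parts.

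The lower calls depended on the scaling. Scaling to the total transposon signal raised the median of all parts by 0.64 on the sense and 0.66 on the antisense strand, and then 4 both-strand parts were lower and 8 higher on the sense strand, and 11 lower and 6 higher on the antisense strand. Median-ratio scaling raised the medians by 0.16 and 0.43 and gave 11 lower and 4 higher sense parts and 11 lower and 5 higher antisense parts. A total with roo left out, a choice made after seeing the data, raised the medians by 1.03 and 1.07 and gave 1 lower and 14 higher sense parts and 7 lower and 13 higher antisense parts. Of the 17 sense calls, 5 held with their direction under each of these scalings (gypsy, Quasimodo, Stalker2 and Juan higher, Copia1 lower). Of the 14 antisense calls, 8 did (roo higher, and springer, gypsy, gypsy3_new, gypsy6_new, Quasimodo, Stalker2 and Tabor lower). A difference between the strands of an element, within a library, is free of this choice apart from the pseudocount.

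**Figure D2:**
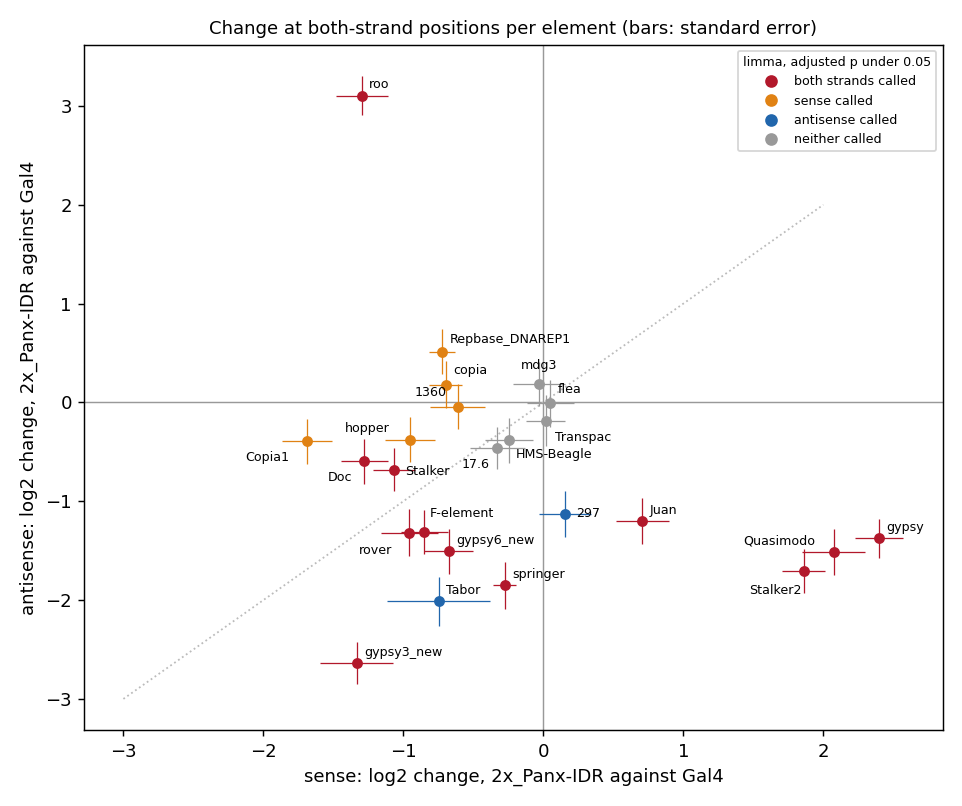
Log2 change in 2x_Panx-IDR against Gal4 on the sense strand (x axis) and the antisense strand (y axis) for the both-strand positions of 24 elements, per miRNA read. Bars are standard errors, colours mark limma calls and the dotted line marks equal change. roo, with -1.30 and 3.10, is the only element called lower on the sense and higher on the antisense strand. The elements gypsy, Quasimodo, Stalker2 and Juan, at the lower right, are called the other way. Other scalings move all points together up and to the right.

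The strands were called in opposite directions in 5 elements per miRNA read, and how often this occurs over all parts was not counted. In roo, mean antisense coverage at both-strand positions was 8372 and 10046 in 2x_Panx-IDR, against 1016 and 1118 in Gal4. Mean sense coverage of roo was 132 and 113 in 2x_Panx-IDR, against 282 and 324 in Gal4. Neither strand overlapped between the groups. The antisense change was 3.10 ± 0.20 (SE, limma adjusted p = 5.92e-09) and the sense change -1.30 ± 0.19 (adjusted p = 0.00123), although the sense call was lost under the scaling without roo (-0.21). The difference between the strands, sense minus antisense, was -4.40 ± 0.20 (adjusted p = 4.49e-06), the largest negative one of the 24.

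In gypsy, an endogenous retrovirus, the pattern was the reverse. Sense coverage at its both-strand positions, all of them in the terminal repeats, was 462 and 501 in 2x_Panx-IDR, against 86.5 and 94.6 in Gal4. Antisense coverage was 2109 and 2502 in 2x_Panx-IDR, against 5701 and 6244 in Gal4. The sense change of gypsy was 2.40 ± 0.17 (limma adjusted p = 5.80e-05), the antisense change -1.38 ± 0.20 (adjusted p = 2.04e-05), and the difference between strands 3.77 ± 0.15 (adjusted p = 3.05e-06). The antisense share of its coverage was 82.7% ± 0.9 in 2x_Panx-IDR and 98.5% in Gal4 (SD, n = 2 each). The sense gain of gypsy was not limited to these positions. At its antisense-only positions mean sense coverage was 127 in 2x_Panx-IDR and 8.69 in Gal4, 14.7-fold against 5.32-fold at both-strand positions. The difference between the kinds of position was not tested on the sense strand.

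Stalker2 and Quasimodo, also of the gypsy type, behaved alike. Sense coverage of Stalker2 was 2483 and 2189 in 2x_Panx-IDR, against 568 and 725 in Gal4, and its antisense coverage was 683 and 758, against 2089 and 2629. The strand difference of Stalker2 was 3.56 ± 0.16 (limma adjusted p = 4.49e-06), and antisense coverage made up 23.6% ± 2.9 of the total in 2x_Panx-IDR, against 78.5% ± 0.2 in Gal4. In Quasimodo, sense coverage was 274 and 198 in 2x_Panx-IDR, against 49.5 and 60.4 in Gal4, and antisense coverage was 447 and 453, against 1106 and 1495. Its strand difference was 3.59 ± 0.24 (adjusted p = 2.87e-05). Sense coverage also rose at antisense-only positions, 5.58-fold in Stalker2 and 4.59-fold in Quasimodo, against 3.61-fold and 4.30-fold at their both-strand positions. The antisense change of Quasimodo was not uniform along the element. From nt 5880 to 6067, which holds 181 of its 428 positions, antisense coverage was 237 and 234 in 2x_Panx-IDR, against 224 and 193 in Gal4, and the median over all its positions gave a change of 0.15 in place of -1.51.

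Juan was the only LINE of this kind among the 24. Its sense coverage was 195 and 172 in 2x_Panx-IDR, against 122 and 103 in Gal4, and its antisense coverage was 74.3 and 88.4, against 159 and 221. The sense change of 0.71 ± 0.19 (limma adjusted p = 0.0188) was no longer called without day 6 (0.61) or without Gal4 replicate 2 (0.59), and the strand difference of 1.91 ± 0.33 (adjusted p = 0.00314) was not called without day 6 (1.69). At nt 1588 to 2106, its longest stretch, sense coverage was 205 and 180.4 in 2x_Panx-IDR, against 121 and 119 in Gal4, and antisense coverage was 69.0 and 85.6, against 152 and 218. Sense coverage of Juan was 1.62-fold higher in 2x_Panx-IDR at antisense-only positions and 1.63-fold higher at both-strand positions.

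**Figure D3:**
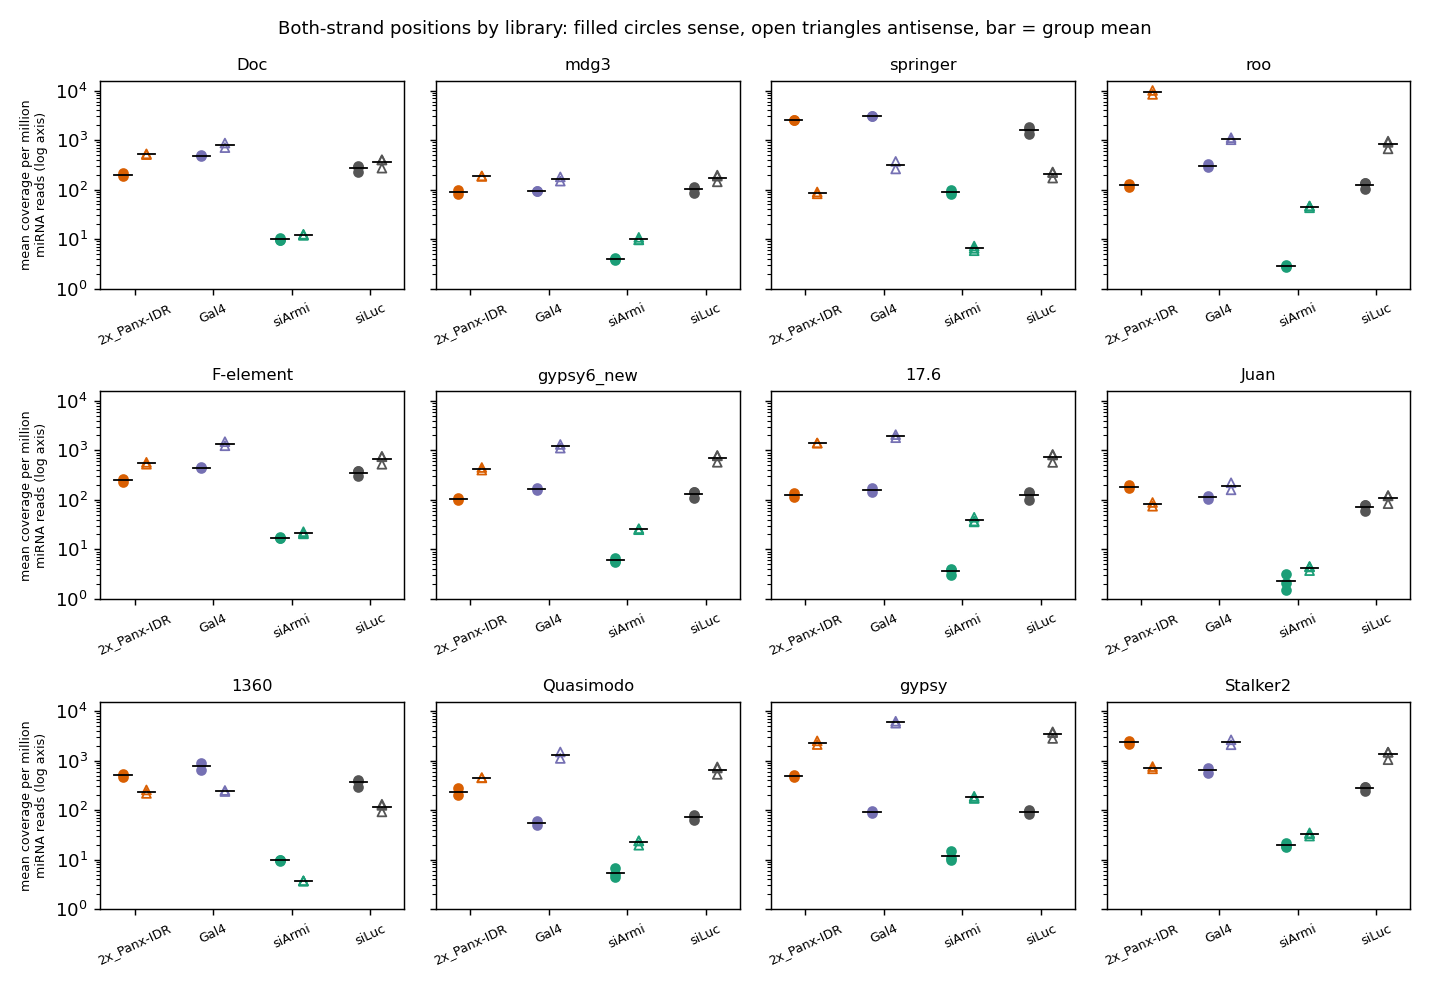
Mean coverage at both-strand positions per library (log axis, per 1000000 miRNA reads) for the 10 elements with the most positions and for gypsy and Stalker2. Filled circles are sense, open triangles antisense, and bars group means. Antisense points of roo stand at 8372 and 10046 in 2x_Panx-IDR, above 1016 and 1118 in Gal4, and all siArmi points lie far below siLuc.

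Both strands were called lower in 7 elements per miRNA read, among them springer, F-element, gypsy6_new and Doc. The share of such elements over all parts was not counted. In springer, antisense coverage was 82.0 and 89.4 in 2x_Panx-IDR, against 261 and 371 in Gal4, a change of -1.85 ± 0.24 (limma adjusted p = 9.76e-06). Its sense coverage was 2527 and 2543 in 2x_Panx-IDR, against 3027 and 3117 in Gal4, a change of only -0.28 ± 0.08 (adjusted p = 0.0286) that was positive when scaled to total transposon signal (0.40) and not called without day 6 (-0.27) or without day 7 (-0.28). The antisense strand of springer therefore lost more than the sense strand, with a strand difference of 1.57 ± 0.20 (adjusted p = 9.91e-04). In F-element, sense coverage was 230.0 and 265 in 2x_Panx-IDR, against 436 and 458 in Gal4, and antisense coverage was 524 and 572, against 1237 and 1495. Its strands differed by 0.46 ± 0.17, which was not called (adjusted p = 0.0723).

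In gypsy6_new, sense coverage was 99.5 and 108 in 2x_Panx-IDR, against 159 and 173 in Gal4, and antisense coverage was 399 and 450.1, against 1109 and 1314. The antisense change was -1.51 ± 0.23 (limma adjusted p = 3.86e-05), and the strands differed by 0.83 ± 0.19 (adjusted p = 0.0116). The lowest antisense change of all 24 was in gypsy3_new, at -2.64 ± 0.21 (adjusted p = 1.03e-07), over 27 positions with 22.3 and 19.9 in 2x_Panx-IDR, against 142 and 130.4 in Gal4. Tabor, with 29 positions, had an antisense change of -2.01 ± 0.25 (adjusted p = 7.09e-06). Both rest on about as many nucleotides as 1 read is long. A coverage of 50 stands for 5.87 to 7.56 reads in 2x_Panx-IDR, so the gypsy3_new values there rest on even fewer.

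Doc differed from these in that the sense strand changed more. Sense coverage was 187 and 213 in 2x_Panx-IDR, against 472 and 499.8 in Gal4, a change of -1.28 ± 0.17 (limma adjusted p = 9.18e-04). Antisense coverage was 527 and 508, against 703 and 869.8, a change of -0.60 ± 0.23 (adjusted p = 0.0437). The antisense call of Doc was lost without day 6 (-0.62), without day 7 (-0.57) and without Gal4 replicate 2 (-0.44), and the value was positive when scaled to total transposon signal (0.076). The strand difference of -0.68 ± 0.19 (adjusted p = 0.0264) was not called without day 6 (-0.57), without Gal4 replicate 1 (-0.57) or without Gal4 replicate 2 (-0.80).

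Sense coverage alone was called lower in the 3409-nt DNA transposon, Copia1, Repbase_DNAREP1, copia and hopper. Copia1 had the lowest sense change of the 24, at -1.69 ± 0.18 (limma adjusted p = 3.84e-04), with 359 and 362 in 2x_Panx-IDR, against 1004 and 1355 in Gal4. Its strand difference was -1.30 ± 0.19 (adjusted p = 0.00189). In Repbase_DNAREP1, sense coverage was 1729 and 1789 in 2x_Panx-IDR, against 2831 and 2976 in Gal4, while antisense coverage was 381 and 339, against 245 and 258. The antisense change of 0.51 ± 0.23 was not called (adjusted p = 0.0752), but the strand difference of -1.23 ± 0.16 was (adjusted p = 9.72e-04). For the 3409-nt DNA transposon, sense coverage was 545 and 465 in 2x_Panx-IDR, against 650.5 and 913 in Gal4. Its sense change of -0.61 ± 0.20 (limma adjusted p = 0.0368) was not called without Gal4 replicate 2 (-0.37) or without day 7 (-0.50).

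Neither strand was called in mdg3, the 7439-nt element, flea, Transpac and HMS-Beagle. In mdg3, sense coverage was 100.3 and 81.9 in 2x_Panx-IDR, against 93.6 and 91.5 in Gal4, and antisense coverage was 189 and 184, against 148 and 180.3. Its changes were -0.03 ± 0.19 and 0.19 ± 0.22 (limma adjusted p = 0.913 and 0.527). In the 7439-nt element, sense coverage was 136 and 116 in 2x_Panx-IDR, against 144 and 174 in Gal4, and antisense coverage was 1409 and 1399, against 1799 and 2076. Its antisense change was -0.46 ± 0.21 (adjusted p = 0.0832). These values do not show that the levels were equal.

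The strands differed in 13 of the 24 both-strand parts (54.2%), where 50% of all 108 parts with a mean of at least 10 on both strands were called. With this filter, both-strand positions were near the background in this respect. Of the 13, the sense strand moved up relative to the antisense strand in 8 (gypsy, Quasimodo, Stalker2, Juan, springer, gypsy3_new, the 6995-nt element and gypsy6_new), or 33.3%, and down in 5 (roo, Copia1, Repbase_DNAREP1, copia and Doc), or 20.8%, where 30.6% and 19.4% of all parts were called. The groups did not overlap in 18 of 24, against 76.9% of all parts. With no filter, the sense strand moved up in 55 and down in 26 of all 234 parts, and still in 8 and 5 of the both-strand parts.

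The antisense change at both-strand positions was compared with that at the antisense-only positions of the same element, within each library, for the 17 elements that have both. The 2 changes differed in 4 of the 17 elements (23.5%, with no wider background), of which 3 had the higher value at the both-strand positions. In Doc the antisense level in 2x_Panx-IDR was 0.66 of that in Gal4 at both-strand positions and 0.39 at antisense-only positions, a difference of 0.75 ± 0.10 (SE, limma adjusted p = 2.03e-07). Stalker differed by 0.47 ± 0.08 (adjusted p = 2.85e-06) and rover by 0.44 ± 0.09 (adjusted p = 1.91e-04), a call that was lost without day 7 (0.33) and without Gal4 replicate 2 (0.26). In Stalker2 the both-strand positions were the lower, with a difference of -0.83 ± 0.08 (adjusted p = 2.73e-10). In roo antisense coverage was 8.63-fold higher in 2x_Panx-IDR at both-strand positions and 8.77-fold higher at antisense-only positions, with a difference of -0.02 ± 0.04 that was not called (adjusted p = 0.687) but was with the median over positions (-0.22). In this fit limma took an infinite prior, so that its p-values rest on a spread shared by all elements.

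Tiles of 100 nt show where along an element the change lay. A tile counts as both-strand if at least 50 of its positions were chosen. Of 188 such tiles, 82 (43.6%) had lower and 13 (6.91%) higher sense coverage in 2x_Panx-IDR, where of all 2060 tiles 17.4% were lower and 22.4% higher. Without day 6 the sense counts were 23 and 7, and without day 7 they were 20 and 8. On the antisense strand 83 (44.1%) were lower and 21 (11.2%) higher, where of all 3381 tiles 52% were lower and 5.77% higher. Tiles with little coverage in Gal4 could also pass the filter through 2x_Panx-IDR alone. With no filter, 61 both-strand tiles were lower and 11 higher on the sense strand, where of all 4891 tiles 262 were lower and 431 higher. The antisense numbers were then 81 lower and 21 higher, where of all 5589 tiles 1745 were lower and 217 higher. Of the 21 tiles with more antisense coverage, 19 belonged to roo, and 1 each to mdg3 and Repbase_DNAREP1. Tiles in the terminal repeats of an element, such as those of gypsy and Copia1 and those at the ends of roo, count the same reads at both ends. The numbers of tiles are therefore not numbers of separate observations. Scaled to total transposon signal, 27 tiles were lower and 38 higher on the sense strand, and 67 lower and 81 higher on the antisense strand.

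The roo tiles split along the element. Sense coverage was called lower in all 24 of its both-strand tiles, with log2 changes from -2.21 to -0.92. Antisense coverage was called higher in 19, with changes of up to 5.59 in the tile that starts at nt 8301. The tiles that start at nt 1 to 401 and at nt 8601 to 9001 lie wholly or partly in the 428-nt terminal repeat. Tiles at these ends rest in part on the same reads and are not separate observations. The 5 tiles that start at nt 7301 to 7701 were not called, with changes from -0.40 to 0.13, and the next, from nt 7801, had 1.33 ± 0.23 (SE, limma adjusted p = 9.89e-09). At the terminal stretch from nt 8603 to 9072, antisense coverage averaged 5486 ± 575 in 2x_Panx-IDR and 539 ± 23.5 in Gal4 (SD, n = 2 each).

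Doc also had a boundary. Of the 25 both-strand tiles that start at nt 1 to 2501, 3 had lower antisense coverage by limma, and in the tiles from nt 4501 and 4601 the changes were -1.76 ± 0.24 (SE, adjusted p = 5.34e-13) and -1.51 ± 0.23 (adjusted p = 3.64e-10). Over the longest stretch, from nt 29 to 2034, antisense coverage was 473 ± 17.7 in 2x_Panx-IDR and 504 ± 43.6 in Gal4, and sense coverage 249 ± 24.4 and 615 ± 25.6 (SD, n = 2 each). By contrast, antisense coverage was called lower in all 24 both-strand tiles of springer (changes from -2.69 to -1.29), all 17 of F-element and all 7 of Juan. In mdg3 only 1 of 28 tiles was called on each strand.

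**Figure D4:**
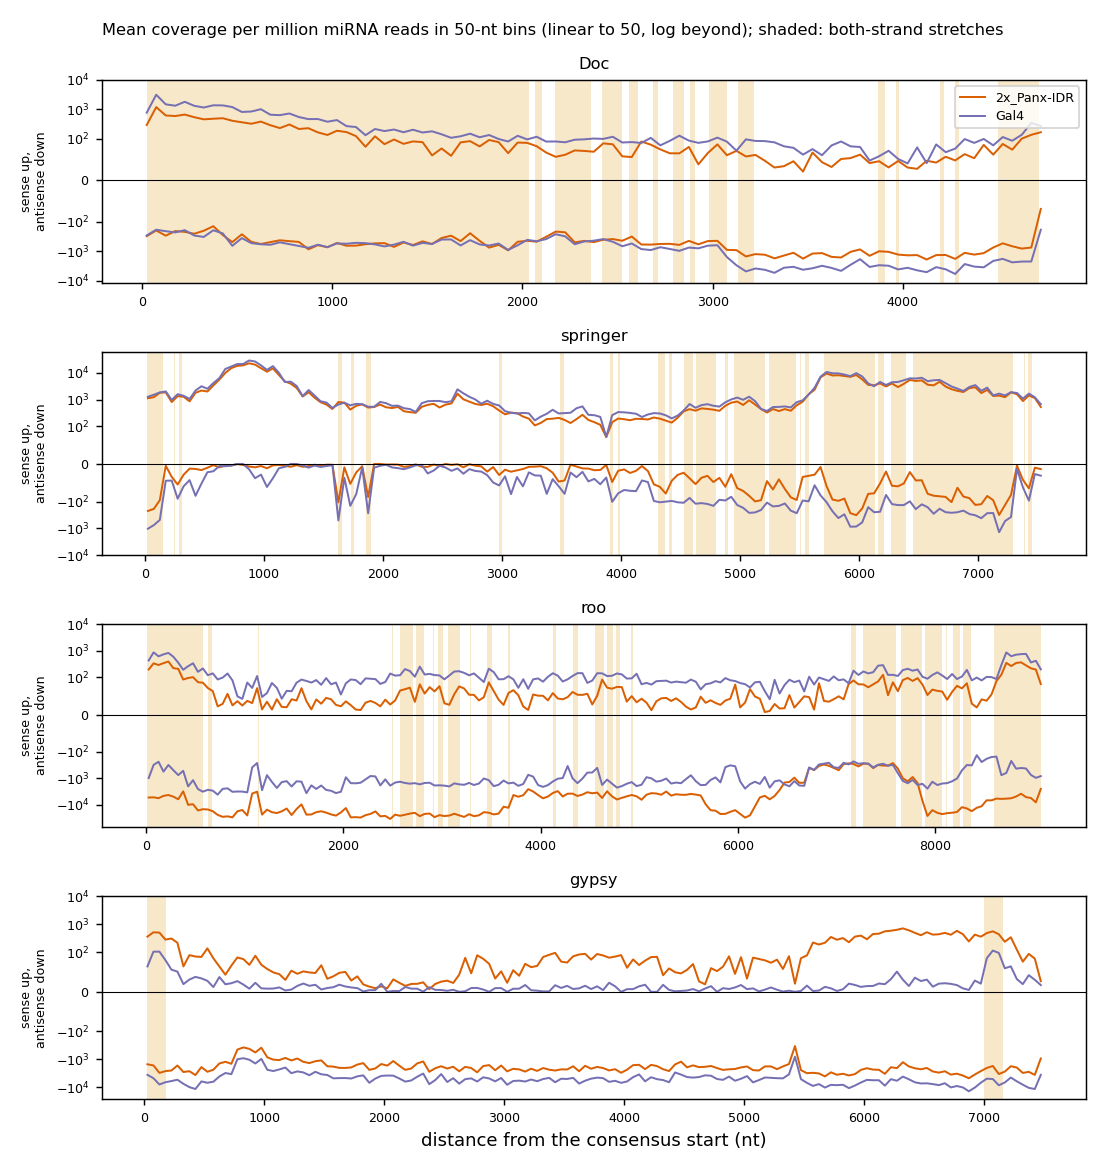
Mean coverage in 50-nt bins along Doc, springer, roo and gypsy in 2x_Panx-IDR and Gal4, sense upward and antisense downward, per 1000000 miRNA reads (axis linear up to 50 and logarithmic beyond), against the distance from the consensus start. Shading marks both-strand stretches. The antisense lines of roo lie close together in the tiles from nt 7301 to 7701 (changes from -0.40 to 0.13) and far apart at the tile from nt 8301 (5.59 on the log2 scale). Those of Doc average 473 in 2x_Panx-IDR and 504 in Gal4 over nt 29 to 2034, with single bins further apart.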

How the data were processed

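Small RNA reads were processed by the authors with cutadapt and bowtie: reads of 24 to 35 nt were aligned to transposon consensus sequences with up to 2 mismatches. A read at 2 places of a single consensus counted 0.5 at each, and reads of several consensus sequences were dropped, which lowers the coverage of related elements. The deposited values are a coverage signal per position and strand and per 1000000 miRNA reads. The antisense table was deposited with a minus sign, which was dropped. Coverage is not a read count, so no count model was fitted.

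From these values the mean over the positions of each part or 100-nt tile was compared on log2(value + 1) with limma 3.58.1 in R 4.3.3, with a trend on the level and a minimum mean of 10. The pseudocount of 1 understates changes of low values. The fits of tiles on the antisense strand and of both-strand against antisense-only positions had an infinite prior. Python 3.11.15, numpy 2.4.6, pandas 2.3.3 and matplotlib 3.10.9 were used. The limma step was tested on simulated data.

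Named were the 10 elements with the most positions, the 3 largest changes in each direction per test with separate groups, and the 10 longest stretches. Elements named beyond this rule were picked after seeing their values. Members, lists and tests were chosen with earlier results of these data known. Element types were assigned by name. The files call the element of 7439 nt 17.6, that of 6995 nt 297 and that of 3409 nt 1360, and the one with 2276 added positions 412. Alternatives were limits of 25 and 100, other pseudocounts, tiles and scalings, medians, no filter, no trend and each library left out. Consensus sequences were not used here.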

Additional observations from a re-analysis of the deposited data

How the results depend on the processing

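All alternatives were fixed at the start except the scaling to total signal with roo left out, which was chosen after seeing the data. Counts refer to both-strand parts or tiles called by limma in 2x_Panx-IDR against Gal4, and for no result that moved was the cause tested, other than that limits and tile sizes change how many features enter. No paired analysis was possible because only siArmi and siLuc share replicate numbers and their comparison has no test. With a limit of 25 there were 40934 both-strand positions, 7 sense parts were higher, 2 antisense parts were higher and the strand difference was lower in 8. With a limit of 100 there were 8477 positions, 2 sense parts and 2 antisense parts were higher, and 2 parts were lower than the antisense-only positions of their element. Scaled to total transposon signal, 4 sense parts were lower and 8 higher, 6 antisense parts were higher, 27 sense tiles were lower and 38 higher, and 81 antisense tiles were higher. Median-ratio scaling gave 5 higher antisense parts and 50 lower and 103 higher antisense tiles. With roo left out of the total, 1 sense part was lower and 14 higher, 7 antisense parts were lower and 13 higher, 4 sense tiles were lower and 83 higher, and 34 antisense tiles were lower and 110 higher. Without a trend 40 sense tiles were lower. The median over positions gave 3 lower strand differences, 2 parts lower than antisense-only positions and a siArmi sense level of 4.49%. With tiles of 50 nt, 158 antisense tiles were lower and 43 higher. With tiles of 200 nt, 45 sense tiles were lower and 8 higher, and 41 antisense tiles were lower and 10 higher. The siArmi level scaled to total signal was 98.1% (sense) and 87.9% (antisense) of siLuc.

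With each library left out, 12 to 13 sense parts were lower and 3 to 4 higher, 10 to 15 antisense parts were lower and 1 higher, 4 to 5 strand differences were lower and 6 to 9 higher, and 1 to 2 parts were lower and 2 to 3 higher than antisense-only positions. Sense tiles numbered 20 to 86 lower and 7 to 16 higher, with 23 and 7 without day 6 and 20 and 8 without day 7, and antisense tiles 72 to 89 lower and 19 to 26 higher. The positions numbered 18218 to 21195, and the siArmi level was 4.33% to 5.02% (sense) and 3.83% to 4.50% (antisense).

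Of the named single-element values, 28 changed sign, 43 lost their call, 10 gained one and 550 did neither. In sense change, the sign turned on scaling to total signal in the 3409-nt DNA transposon (0.059), the 7439-nt element (0.34), mdg3 (0.64) and springer (0.40), on median-ratio scaling in mdg3 (0.14), with roo left out of the total in the 3409-nt transposon (0.47), the 7439-nt element (0.75), F-element (0.23), gypsy6_new (0.40), mdg3 (1.05) and springer (0.81), and without day 7 in mdg3 (0.12, against -0.17 without day 6). In antisense change it turned on scaling to total signal in the 3409-nt transposon (0.63), the 7439-nt element (0.21) and Doc (0.076), on median-ratio scaling in the 3409-nt transposon (0.39), with roo left out of the total in the 3409-nt transposon (1.04), the 7439-nt element (0.63) and Doc (0.49), without day 7 in the 3409-nt transposon (0.070, against -0.16 without day 6) and with the median over positions in Quasimodo (0.15). Against antisense-only positions it turned with a limit of 25 in Quasimodo (-0.020) and roo (0.15), with a limit of 100 in the 7439-nt element (-0.0022) and Juan (0.48), without day 6 in Juan (0.0062, against -0.23 without day 7), without Gal4 replicate 2 in mdg3 (-0.0055, against 0.17 without Gal4 replicate 1) and with the median in F-element (-0.0012). A fit that leaves an arm with 1 library assumes that it varies like the others. Depth limits the tethering libraries most, where a coverage of 50 is 4.35 to 7.56 reads.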

Other observations

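The limit of 50 on both strands was also compared between 2x_Panx-IDR and Gal4 over all positions, those chosen in siLuc included. Between these groups, 32728 positions were above the limit only in 2x_Panx-IDR and 13030 only in Gal4, with 22146 in both lists. Of the positions chosen in siLuc, 15225 were in the 2x_Panx-IDR list and 17773 in the Gal4 list. The positions added in 2x_Panx-IDR lay mainly in elements of the gypsy type that held few or none in siLuc. Among these were mdg1 with 5623 (0 in siLuc), blood with 4624 (0), Quasimodo with 4281 (428), gypsy with 3606 (308), Tabor with 3280 (29), an element with a bare number as its name with 2276 (0) and Stalker2 with 1990 (294). The positions held in Gal4 alone lay mainly in roo (5229), springer (2025) and Doc (1490). Elements were picked after their counts were seen, a coverage of 50 stands for only 4.35 to 7.56 reads in these libraries, and no test was made of the lists.

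At the 191007 positions that reached the limit on the antisense strand alone in siLuc, mean sense coverage was 61.4 and 66.8 in 2x_Panx-IDR, against 10.5 and 12.0 in Gal4, and mean antisense coverage was 1474 and 1686, against 2639 and 3106. The groups did not overlap on either strand.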
